A study of Homo sapiens with 2 samples.

Results

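PERP, a small tetraspan membrane protein of the desmosome, and 9 genes that encode other desmosomal proteins were followed in RNA sequenced from A549 cells after knockdown of the long noncoding RNA MILIP. A549 is a human lung adenocarcinoma line. The cells received a control siRNA or a single MILIP siRNA by lipid transfection, and total RNA was sequenced after 48 h, with 1 library per condition, so that there was no spread between replicates to set a difference against, and p-values are not given. The 10 genes were chosen by symbol from the 60711 genes in the authors' table, with earlier results of these data in view, among them the higher PERP value after MILIP siRNA. All of their differences between the libraries are therefore given as a description. They comprise PERP, the desmosomal cadherins DSG2, DSC2 and DSC3, the plakins DSP and PPL, and the armadillo proteins JUP, PKP2, PKP3 and PKP4.

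Desmosomes are spot junctions that tie the intermediate filaments of neighbouring epithelial cells together. Desmogleins and desmocollins are cadherins that bridge the gap between the cells, the armadillo proteins plakoglobin and the plakophilins bind their tails on the inside, and plakins link this plaque to keratin. PERP is needed for stable desmosomes in stratified skin and is also known as an effector of apoptosis.

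The authors' table gives 1 scaled read count per gene and library, and each value above 0 stands for a whole number of reads, 20300800 in all in the control library and 19460956 in the library from MILIP siRNA (the knockdown library). The lowest value above 0 stands for 20 reads in both libraries, so a gene listed at 0 may have had fewer reads than that rather than none. The log2 ratio of knockdown to control, after a pseudocount of 1 was added to each value, was taken for the 13521 genes with a mean scaled read count of at least 1, and all 10 genes passed this filter. Genes are called higher or lower where this ratio reached 1.5-fold in that direction. Where limits are given, they are 95% Clopper-Pearson limits on the log2 ratio without the pseudocount, or 95% Poisson limits on a level, and both cover counting error only. MILIP itself (ENSG00000265688) stood at 29.5 in the control library and 3.22 in the knockdown library, for a log2 ratio of −2.85. The epithelial markers EPCAM, CDH1, KRT7, KRT8, KRT18 and KRT19 were all detected, with KRT8 at 2543 and 2875 but EPCAM at only 2.65 and 5.93. Of 6 markers of alveolar type II cells only ABCA3 had a value above 0, and NKX2-1, SFTPB and SFTPC were listed at 0. Most fibroblast, endothelial and leukocyte markers were listed at 0 or had no value, with sums of 14.6 and 44.3 for the fibroblast list, 0 in both libraries for the endothelial list and 1.25 and 2.77 for the leukocyte list. The higher fibroblast sum came from COL1A1, which stood at 10.1 in the control library and 40.1 in the knockdown library, while COL1A2, LUM and PDGFRB were listed at 0. Its part in the values of the desmosomal genes was not tested. In bulk RNA, fewer cells that express a gene and less RNA per cell cannot be told apart.

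Sequence was available for the promoters of 7 of the 10 genes, as RefSeq windows on GRCh38.p14 that run from 250 bases before to 50 bases after a transcription start. The stretches printed here are from 3 genes with abundant transcripts, PERP with a higher value after knockdown and DSP and DSG2 with lower values. They run up to the first exon base in GENCODE release 29. Also printed are 30 bases around matches within the JUP gene, upstream of an internal start. The PERP stretch lies at chr6:138107512-138107669 on the − strand, and capitals mark an AP-1 motif (TGANTCA) that starts 101 bases before the RefSeq start.
PERP: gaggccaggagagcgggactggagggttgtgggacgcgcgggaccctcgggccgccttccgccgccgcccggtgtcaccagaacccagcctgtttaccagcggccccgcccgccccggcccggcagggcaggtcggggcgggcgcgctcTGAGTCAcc
The DSP stretch lies at chr6:7541421-7541574 and that of DSG2 at chr18:31497927-31498042, both on the + strand. Capitals mark an E-box of the type bound by SNAI and ZEB repressors (CAGGTG, or CACCTG on the other strand). Both windows hold a further E-box beyond the printed stretch, at −85 for DSP and −116 for DSG2 from the RefSeq start.
DSP: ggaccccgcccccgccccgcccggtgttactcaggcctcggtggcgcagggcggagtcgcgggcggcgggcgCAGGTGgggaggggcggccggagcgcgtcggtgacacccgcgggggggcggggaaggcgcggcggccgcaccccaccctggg
DSG2: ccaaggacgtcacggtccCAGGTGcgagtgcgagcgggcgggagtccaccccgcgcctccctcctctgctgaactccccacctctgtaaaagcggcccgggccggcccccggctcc
The JUP stretch lies at chr17:41786008-41786037 on the − strand, upstream of the more internal of its 2 RefSeq starts, with the same E-box once on each strand.
JUP: ctggcccCACCTGccgagCAGGTGagcgca

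The 7 genes had 10 windows, since 3 of them have 2 starts each. Over both strands, the E-box was found in 4 of the 10 windows, 1 each of DSC2, DSG2, DSP and JUP, against 20.6% of 35116 RefSeq windows of the same length. The AP-1 motif was found in 1 of the 10 (PERP) against 7.71% of all windows. The GC box (GGGCGG) was found in 8 of the 10 against 45.0%, and CCAAT in 3 of the 10 against 34.6%. These matches describe letters in short windows and were not tested for binding.

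PERP (ENSG00000112378, chr6:138088505-138107511 in GENCODE release 29) stood at 126.7 scaled read counts with control siRNA and at 270.3 after knockdown, from 2529 and 5375 reads. The value was 2.13-fold higher after MILIP siRNA, with a log2 ratio of 1.09 and limits of 1.02 and 1.16. It lay at rank 378 from the highest ratio among all genes tested, within the highest 2.80%. The 3 other genes closest to PERP in both libraries, by the distance of their log2 values, were MAPK6 (131 and 265), CD164 (137 and 273) and GFPT1 (130 and 244). With only 2 libraries, such closeness says no more than that the values are alike.

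Of the members, 3 were higher by 1.5-fold or more, beside 11.1% of all genes tested, and none was lower by as much, beside 13.8%. The median log2 ratio of the 10 was −0.20, against −0.03 for all genes tested. By counting error alone, both limits lay above 0 for 4 of the 10, against 30.1% of all genes, and below 0 for 5, against 36.5%. PERP thus stood with PPL and JUP on the higher side, while 6 genes had ratios below 0 that did not reach the threshold.

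**Figure D1:**
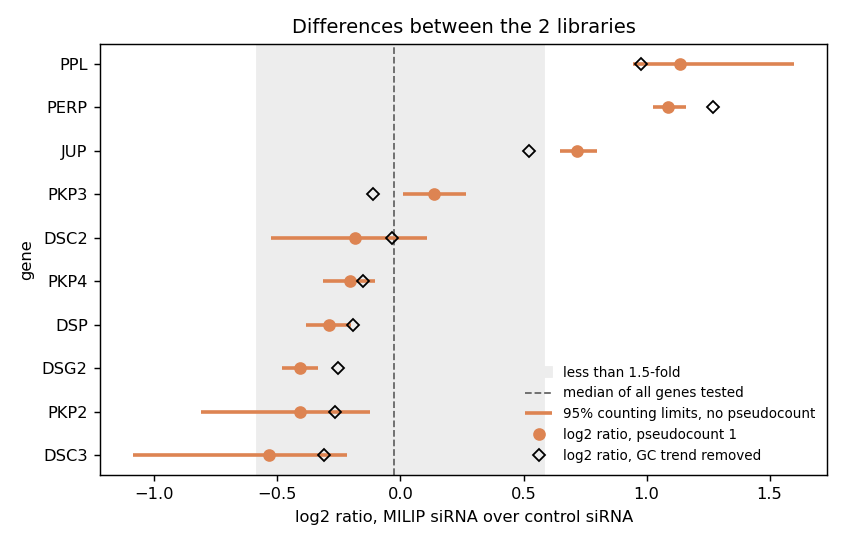
Log2 ratio of MILIP siRNA over control siRNA (x axis) for each of the 10 genes (y axis), with 1 library per condition. Filled points are ratios with a pseudocount of 1, bars are 95% counting limits, open diamonds are ratios with the GC trend removed, the grey band marks less than 1.5-fold and the dashed line is the median of all genes tested. PPL, PERP and JUP lie to the right of the band at 1.14, 1.09 and 0.72, and with the GC trend removed JUP lies inside it at 0.52.

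The 3 cadherins all had log2 ratios below 0, none of which reached 1.5-fold. DSG2 (ENSG00000046604), the desmoglein of simple epithelia, stood at 178.0 in the control library and 133.9 in the knockdown library, a log2 ratio of −0.41 with limits of −0.48 and −0.34. DSC2, the desmocollin that pairs with it in simple epithelia, had 9.12 and 7.89 and a log2 ratio of −0.19, and its limits of −0.52 and 0.11 include 0. DSC3, a desmocollin of basal cells of stratified epithelia, had 5.91 and 3.77, from 118 and 75 reads, and a log2 ratio of −0.53 with limits of −1.09 and −0.22. With a pseudocount of 0.1 the log2 ratio of DSC3 was −0.63, past 1.5-fold as were 15.5% of all genes tested at that setting, so that its side of that threshold rests on the pseudocount. All 3 genes belong to the desmosomal cadherin cluster at chr18:30990008-31549008, 559 kb with 7 cadherin genes. DSC3 and DSC2 lie at one end and DSG2 at the other. Of the genes between them, DSG4 was listed at 0 in both libraries and DSC1, DSG1 and DSG3 had no value. A stretch of 171 exon bases of DSG2 (2.76%) is shared with DSG2-AS1 on the opposite strand, which was listed at 0 in both libraries.

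The plakins went apart. DSP (ENSG00000096696), which encodes desmoplakin, the main link from the plaque to keratin, stood at 108.1 in the control library and 88.2 in the knockdown library, a log2 ratio of −0.29 with limits of −0.39 and −0.20. PPL (ENSG00000118898) encodes periplakin, which joins the plaque and the cornified envelope of stratified epithelia, and had 5.61 and 13.5 from 112 and 269 reads. Its log2 ratio of 1.14 was the largest of the 10, but with limits of 0.95 and 1.60 it was also one of the least precise. Its partner envoplakin (EVPL), not among the 10, was at 40.8 and 58.7, a log2 ratio of 0.51 that did not reach 1.5-fold. EVPL was the single gene to pass the filter of 7 further desmosomal genes, with DSG4 and CDSN listed at 0 and PKP1 and the remaining cadherins without a value.

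Of the armadillo proteins, JUP stood apart. JUP (ENSG00000173801), which encodes plakoglobin, stood at 114.6 in the control library and 189.3 in the knockdown library, 1.65-fold higher, with a log2 ratio of 0.72 and limits of 0.65 and 0.80. With the trend of log2 ratio with transcript GC content removed, its log2 ratio was 0.52, below 1.5-fold, so that 2 of the 10 genes were then higher, beside 10.9% of all genes with a GC value. PKP3, the plakophilin that occurs in nearly all desmosomes, had 46.9 and 51.6, a log2 ratio of 0.14 that changed sign to −0.11 with that trend removed. PKP4, a plakophilin relative found also at adherens junctions, had 77.3 and 66.9 and a log2 ratio of −0.21 with limits of −0.32 and −0.10. A share of 4.39% of its exon bases overlaps PKP4-AS1 on the opposite strand, listed at 0 in both libraries. PKP2, the plakophilin of simple epithelia and heart, had 8.61 and 6.23 and a log2 ratio of −0.41 with limits of −0.81 and −0.13.

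To compare levels between genes, the scaled read counts were divided by the length of each gene's merged exons in kb. With control siRNA, PERP was the highest of the 10 at 29.5 per kb, followed by DSG2 at 28.7, and the Poisson limits of these 2 levels overlapped. JUP followed at 23.2 per kb, PKP3 at 12.4, DSP at 10.7 and PKP4 at 8.12, each apart from its neighbours by counting error. PKP2 was at 1.22 per kb, and DSC3, PPL and DSC2 were at 0.84, 0.73 and 0.73 with overlapping limits. The desmocollins, PPL and PKP2 thus formed the scarce end of the order. This order, and the sums and shares given below, depend on the merged exon lengths, such as 4290 bases for PERP and 6190 for DSG2. By scaled read count DSG2 was above PERP in the control library, at 178.0 against 126.7.

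**Figure D2:**
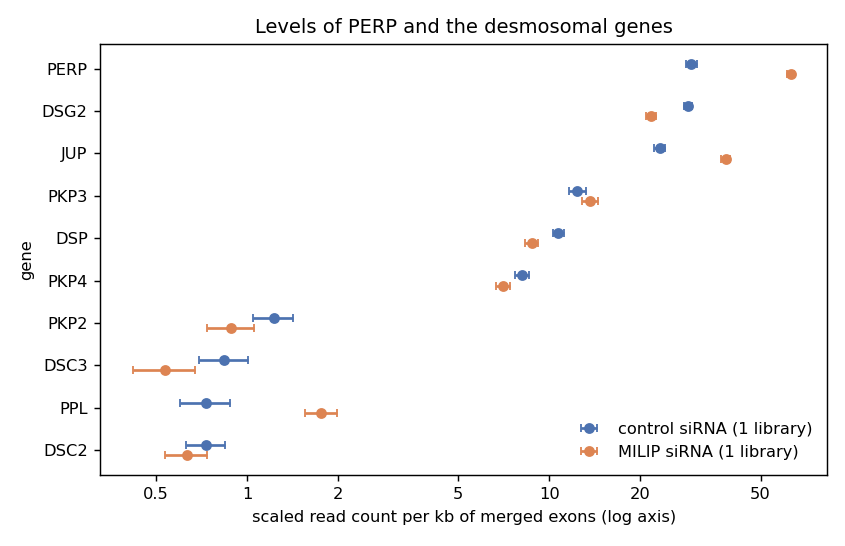
Scaled read count per kb of merged exons (x axis, log scale) of each gene (y axis) in the control siRNA library and the MILIP siRNA library. Points are the single values and bars are 95% Poisson limits. PERP lies at 29.5 and 63.0, JUP at 23.2 and 38.3 and DSG2 at 28.7 and 21.6.

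With MILIP siRNA the order began with PERP at 63.0 per kb, JUP at 38.3 and DSG2 at 21.6. The limits of PERP and DSG2 no longer overlapped, and those of JUP lay apart from both. PPL, at 1.76 per kb, had moved above PKP2 and DSC3, and its limits no longer overlapped those of DSC2. The sum over the 10 genes was 116.2 per kb with control siRNA and 156.2 with MILIP siRNA, 1.34-fold higher, but without PERP it was 86.7 and 93.2, 1.07-fold higher. PERP held 25.4% of the sum with control siRNA and 40.3% with MILIP siRNA, JUP 19.96% and 24.5%, and DSG2 24.7% and 13.9%. A share depends on the other genes of the sum as well, and the level of DSG2 itself was 28.7 and 21.6 per kb. The per kb ratio of JUP to DSP was 2.17 in the control library and 4.38 after MILIP siRNA.

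**Figure D3:**
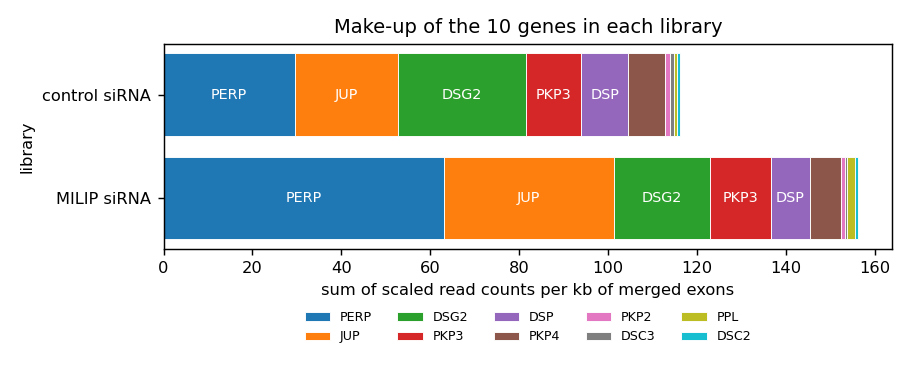
Scaled read counts per kb of merged exons, stacked over the 10 genes (x axis), in the control siRNA library and the MILIP siRNA library (y axis). The PERP segment takes 25.4% of the upper bar and 40.3% of the lower one, while the DSG2 segment takes 24.7% and 13.9%.

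GC content was examined because log2 ratios increased with it across all genes tested, from a median of −0.24 in the lowest to 0.21 in the highest of 10 bins of transcript GC content. JUP and PPL have GC-rich transcripts (61.5% and 59.5%), in a bin with a median of 0.16, and PKP3 has 66.7%, in a bin with a median of 0.21. PERP, at 41.2%, shares with DSG2, at 42.0%, a bin with a median of −0.16. The other cadherins, DSC2 at 38.9% and DSC3 at 39.9%, lie in a bin with a median of −0.19. Removal of the trend moved PERP up to a log2 ratio of 1.27, left PPL at 0.98 and moved DSG2 to −0.26. With it removed, DSC3 was at −0.31 and DSC2 at −0.03. Whether GC content has a part in these differences was not tested.

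**Figure D4:**
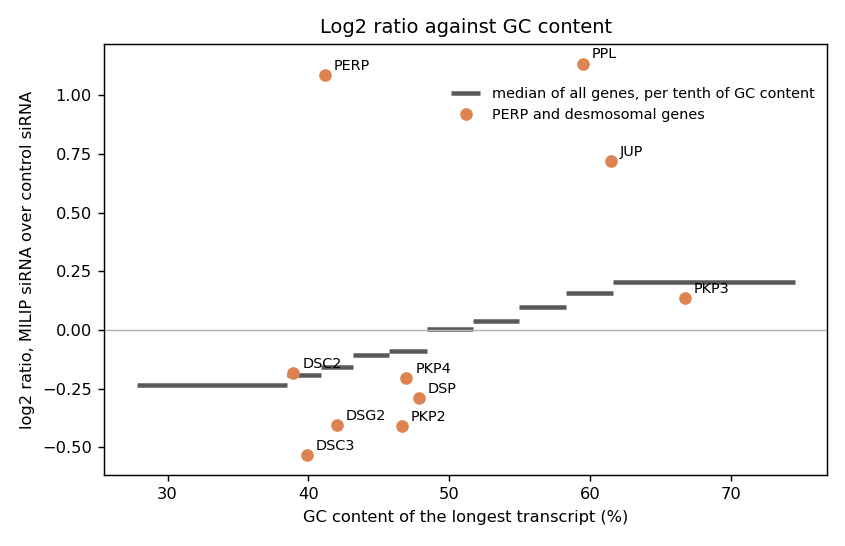
Log2 ratio of MILIP siRNA over control siRNA (y axis) against the GC content of the longest transcript in percent (x axis). Points are the 10 genes and horizontal lines are the medians of all genes tested in 10 bins of equal number. PERP stands far above the line of its bin, at 1.09 against −0.16, whereas PKP3 lies below its own, at 0.14 against 0.21.

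Genes of the neighbouring junction types and of the keratin cytoskeleton were set beside the desmosome. Of 11 adherens junction genes tested, 1 was higher by 1.5-fold or more and 4 were lower by as much, with a median of 0.01. Over all genes tested the shares were 11.1% higher and 13.8% lower. CTNND1, which encodes p120-catenin, stood at 233 in the control library and 69.8 in the knockdown library, and NECTIN2, a cell adhesion receptor, 179 and 87.6, whereas E-cadherin (CDH1) had 30.5 and 50.8 and N-cadherin (CDH2) 71.4 and 96.6. Beta-catenin (CTNNB1), the closest relative of plakoglobin and named after its values were seen, was lower at 393 and 216, a log2 ratio of −0.86. The per kb ratio of JUP to CTNNB1 was 0.70 in the control library and 2.11 after MILIP siRNA. The side of 1 on which this ratio lies depends on the merged exon lengths, 4942 bases for JUP and 11927 for CTNNB1, and by scaled read count CTNNB1 was above JUP in both libraries.

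Of the 9 hemidesmosome genes, which anchor keratin to the basement membrane, none was higher by 1.5-fold or more and 3 were lower by as much, with a median of −0.27. The plakin PLEC had 1126 and 572. LAMB3 and CD151 were the highest of this list, with log2 ratios of 0.47 and 0.22. Of the 9 keratin genes tested of 18 listed, 3 were higher by 1.5-fold or more and 1 was lower by as much, with a median of 0.18. Both lists stand beside 11.1% higher and 13.8% lower among all genes tested. KRT7 was at 1508 and 810 and KRT81 at 3530 and 2815, while KRT4 was at 2.30 and 14.5 and KRT19 at 62.1 and 121.9.

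The transcription factors of epithelial junction genes included 1 known to act on PERP in skin. TP63, whose product drives PERP in stratified epithelia, was low at 4.01 and 7.04, a log2 ratio of 0.68 with limits of 0.41 and 1.23. Of the 12 factors tested, 4 were higher by 1.5-fold or more and 1 was lower by as much, beside 11.1% and 13.8% of all genes tested. Their median was 0.05 and went to 0.35 over the factors with a mean of at least 5. ELF3 and KLF4, epithelial activators, had log2 ratios of 0.92 and 0.69. ZEB1, which represses epithelial genes through E-boxes, was at 36.4 and 20.2, a log2 ratio of −0.82, and GRHL1 had −0.33 with limits that include 0.

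**Figure D5:**
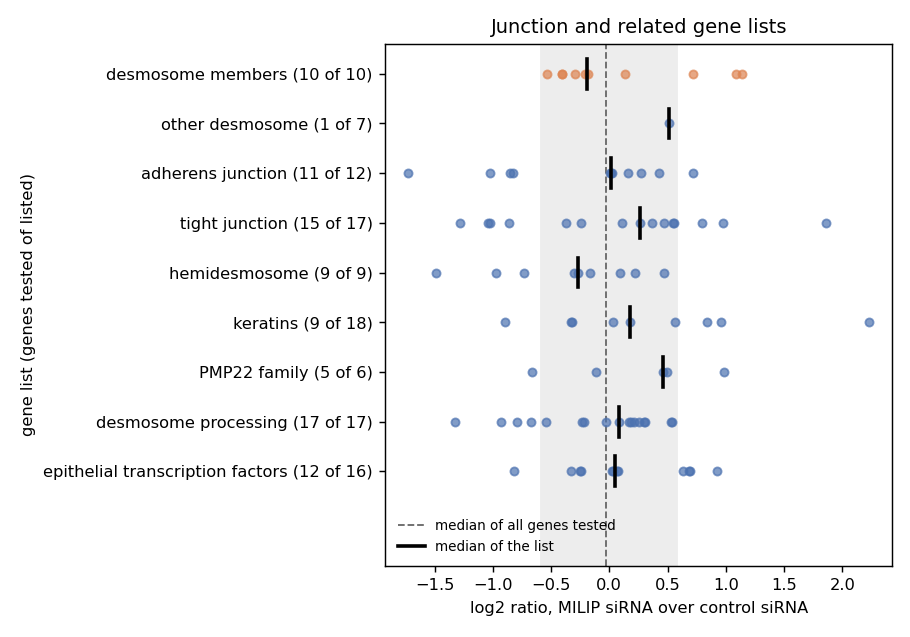
Log2 ratio of MILIP siRNA over control siRNA (x axis) for genes of each list (y axis, with the number tested of the number listed). Points are genes, black bars are list medians, the grey band marks less than 1.5-fold and the dashed line is the median of all genes tested. The 10 desmosomal genes (top row) have a median of −0.20 and run from −0.53 to 1.14.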

How the data were processed

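RNA-seq of A549 cells was analysed, with 1 control siRNA library and 1 MILIP siRNA library collected 48 h after transfection. Per the labels, the processing notes name TopHat2 2.0.12, HTSeq 0.6.1 and hg38. The annotation, the strand setting and the scaling are not given in the sources used here. The authors deposited a signal per gene and library in columns named as read counts. All values above 0 are whole multiples of 1 step per library, to within 0.01 reads, which was taken as 1 read. The deposited log2 fold changes, p-values and q-values and the authors' calls were not used.

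Symbols were matched for 13365 of the 13521 genes tested. Gene places, merged exons and the GC content of the longest transcript were taken from GENCODE release 29 (GRCh38) and were available for 99.1% of genes. With 1 library per condition no test was run and no count model was fitted. The members and lists were chosen with earlier results of these data known. The named genes were all 10 members, MILIP, the 2 highest and 2 lowest genes of each other list with TP63, and the 3 genes closest to PERP. CTNNB1 was added after its values were seen, and cell type markers are named beside this rule. Some of these, 1 further list and 1 motif are not reported here. Alternatives were a pseudocount of 0.1 or none, scaling by the median of ratios or by the sum, no filter, a mean of at least 5, a 2-fold threshold and removal of the GC trend by the medians of 50 bins. The calculations were tested on simulated data. The tools were matplotlib 3.10.9, scipy 1.17.1, pandas 2.3.3, numpy 2.4.6 and Python 3.11.15.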

Additional observations from a re-analysis of the deposited data

How the results depend on the processing

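No paired analysis was possible because there was a single library of each kind, which also left no library to leave out. Of 50 log2 ratios of single members under the 5 alternatives that bear on them, 49 kept the sign, the exception being PKP3 with the GC trend removed (−0.11). Of the 50, 45 stayed within the counting limits of the member. With the GC trend removed, PERP (1.27), JUP (0.52), PKP3, DSG2 (−0.26) and DSP (−0.19) moved beyond them. That alternative also took the list median of EVPL alone to 0.33, of the keratins to 0.044 and of the PMP22 family to 0.61. No other alternative moved a member beyond its counting limits. With a pseudocount of 0.1, 1 member (DSC3) was at least 1.5-fold lower. At a 2-fold threshold there were 471 higher and 625 lower genes, fewer by construction, with PERP and PPL among the higher. Without the filter on low values, genes listed at 0 took the medians of the keratins and of the further desmosomal genes to 0 and that of the tight junction genes to 0.11. A mean of at least 5 took the median of the transcription factors to 0.35. Scaling by the sum took those of the adherens junction and desmosome processing genes to 0.07 and 0.14. Both scalings moved the median of all genes by less than 0.1. Depth limits DSC3, PPL, PKP2 and DSC2 most, which rest on 75 to 269 reads in a library.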

Other observations

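PERP belongs to a wider family of tetraspan proteins with PMP22 and the EMP proteins. The counts in this section stand beside 11.1% of all genes tested that were higher by 1.5-fold or more and 13.8% that were lower. Of 5 relatives tested, EMP2 was higher by 1.5-fold or more, at 33.6 in the control library and 67.4 in the knockdown library, and TMEM47 was lower by as much, at 7.76 and 4.53. EMP1 and EMP3 had log2 ratios of 0.50 and −0.11. The per kb ratio of PERP to EMP2 was 7.67 in the control library and 8.15 after MILIP siRNA.

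Among 17 factors that process, traffic or signal to desmosomal proteins, none was higher by 1.5-fold or more and 4 were lower by as much, with a median log2 ratio of 0.08. EGFR, a kinase that phosphorylates desmosomal cadherins and plakoglobin, stood at 261 in the control library and 103 in the knockdown library, and the kinesin KIF5B 446 and 233. SRC and FLOT2 were the highest of this list, each with a log2 ratio of 0.53. Of 15 tight junction genes tested, 3 were higher by 1.5-fold or more and 4 were lower by as much, with a median of 0.26 that went to 0.11 without the filter on low values. CLDN1 was at 130.5 and 53.2 and F11R, which encodes JAM-A, at 23.2 and 10.8, while TJP3 was at 3.51 and 15.3 and CLDN3 at 2.65 and 6.18. Of the 6 stratified epithelium markers, KRT5 and KRT14 were listed at 0, and KRT10 was at 80.3 and 119.3.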
